A study of Mus musculus with 4 samples.

Results

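Gadd45a, Gadd45b and Gadd45g encode the 3 members of the mouse GADD45 family, and their RNA was followed here through the cell classes of the spleen after an injection of TNF. They are 3 of the 32285 features in the deposited count tables. They were picked with results of these data known, because Gadd45g was higher in T cells and Gadd45b in dendritic cells with TNF, so those responses are given as descriptions. All 3 were detected in every library, and the kept cells gave 9309 UMIs of Gadd45a, 4723 of Gadd45b and 2163 of Gadd45g, a UMI (unique molecular identifier) standing for 1 RNA molecule that was captured.

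Spleens came from 10-week-old C57BL/6 mice, either wild-type or labelled TRIF-KO, 4 h after 100 µl of PBS, or of PBS with 9 µg of recombinant mouse TNF, was given into a vein. Erythrocytes were lysed, and a dead-cell removal step followed, before droplet-based single-cell RNA sequencing (10x Genomics). TRIF is the signalling adaptor encoded by Ticam1 that serves Toll-like receptors, and the labels name neither the allele nor the number of mice behind a library. There was 1 library per group, so no difference could be set against a spread between mice and no test was possible. Where 4 values are listed, the wild-type libraries come first, PBS before TNF, and the TRIF-KO libraries follow in the same way, and every 95% interval in parentheses covers counting error only.

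The 4 libraries held 2683, 6855, 6508 and 8060 barcodes, of which 2452, 5033, 5403 and 6662 were kept as cells, with medians of 6883.5, 4678, 4409 and 7182 UMIs. Over 10% mitochondrial UMIs, the limit for leaving a barcode out, were found in 6.26%, 22.4%, 10.8% and 11.6% of barcodes. The share was thus highest in the wild-type TNF library. In the kept cells the median was 4.43%, 4.79%, 4.51% and 4.60%. Pairs of libraries shared 1 to 10 barcodes. Ticam1 was read at 6.86, 3.72, 8.36 and 5.70 CPM (UMIs per 1000000 UMIs), so its RNA was not lower in the libraries labelled TRIF-KO with the treatment held equal. The genotype is therefore used here as labelled. Classes were named from their markers and are called "-like". 7 of them had at least 50 cells in every library, namely B-like, T-like, NK-like, neutrophil-like, monocyte/macrophage-like, dendritic-like and erythroid-like cells. Every marker on the lists of the cells that make up these 7 classes had a UMI in each library.

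GADD45 proteins are small acidic proteins without known enzyme activity that act by binding partners. All family members bind and activate the kinase MTK1 (Map3k4), which feeds the p38 and JNK branches of MAP kinase signalling, and they also bind PCNA, p21 (Cdkn1a) and the kinase CDK1 in growth arrest and DNA repair. Gadd45a is best known as a p53 target induced by DNA damage. Gadd45b is a target of NF-kB whose product restrains JNK through the kinase MKK7 (Map2k7), and Gadd45g is induced by cytokines. In T cells, Gadd45b and Gadd45g are known to sustain p38 activity and interferon-gamma production after IL-12 and IL-18.

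The genes lie on separate chromosomes of mouse build GRCm38 (GENCODE M21). Gadd45a (ENSMUSG00000036390) spans 67035096 to 67037457 on the minus strand of chromosome 6, Gadd45b (ENSMUSG00000015312) spans 80930073 to 80932204 on the plus strand of chromosome 10, and Gadd45g (ENSMUSG00000021453) spans 51846678 to 51848468 on the plus strand of chromosome 13. The DNA just before each start is shown because the level of the 3 genes differed with TNF in different cell classes. The sequences come from RefSeq (GRCm38.p6), run 5′ to 3′ on the gene's strand and end before the earlier of the RefSeq and GENCODE starts. Capitals mark matches, on either strand, to the TATA box TATAAA, the CCAAT box CCAAT, the E-box CACGTG and the octamer ATTTGCAT. Gadd45a is chr6:67037458-67037657, Gadd45b is chr10:80929841-80930072 and Gadd45g is chr13:51846425-51846674.
Gadd45a: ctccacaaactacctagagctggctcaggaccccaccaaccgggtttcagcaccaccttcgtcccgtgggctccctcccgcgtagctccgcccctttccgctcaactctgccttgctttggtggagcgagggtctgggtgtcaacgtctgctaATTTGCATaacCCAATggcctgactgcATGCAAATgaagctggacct
Gadd45b: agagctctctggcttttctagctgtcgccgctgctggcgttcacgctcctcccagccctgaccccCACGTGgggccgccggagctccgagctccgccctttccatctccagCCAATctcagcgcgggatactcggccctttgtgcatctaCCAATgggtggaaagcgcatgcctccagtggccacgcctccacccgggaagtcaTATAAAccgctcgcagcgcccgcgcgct
Gadd45g: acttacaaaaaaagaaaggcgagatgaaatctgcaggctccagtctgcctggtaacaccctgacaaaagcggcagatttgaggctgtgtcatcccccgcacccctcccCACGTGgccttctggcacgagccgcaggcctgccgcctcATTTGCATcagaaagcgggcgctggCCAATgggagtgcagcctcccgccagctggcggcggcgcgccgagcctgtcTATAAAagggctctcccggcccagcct

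All 3 promoters hold a CCAAT box, and Gadd45b has 2. The TATA box is present before Gadd45b and Gadd45g and not before Gadd45a, and so is the E-box. The octamer stands before Gadd45g once and before Gadd45a once on each strand. Matches were counted in the table's full windows, 250 bases before to 50 after the RefSeq start, of which the printed runs are a part. Over the 32851 mouse promoters of the same table and length, 37.4% hold a CCAAT box, 13.6% a TATA box, 7.15% the E-box and 1.74% the octamer, counted on both strands. The GC box GGGCGG (35.7% of promoters) was matched in Gadd45a and Gadd45b, and it is not capitalised. No match to the AP-1 site TGANTCA (7.81%), the STAT site TTCNNNGAA (8.30%) or the NF-kB consensus (8.46%) lay in these windows, which says only that these letters are not there. A match is a description of the letters and not of a bound site.

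Each member had its own pattern of cell classes. By CPM, Gadd45a was highest in erythroid-like and neutrophil-like cells, Gadd45b in dendritic-like, neutrophil-like and, with TNF, monocyte/macrophage-like cells, and Gadd45g, with TNF, in dendritic-like, T-like and NK-like cells. Erythroid-like cells held 59.4%, 72.1%, 63.8% and 80.1% of the Gadd45a UMIs. B-like cells, the most numerous class, held 59.5% and 81.5% of the Gadd45g UMIs with PBS in wild-type and TRIF-KO. With TNF, T-like cells held 56.9% and 45.4% of them and B-like cells 29.3% and 32.3%. CPM values are compared here within a gene and never between genes.

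**Figure D1:**
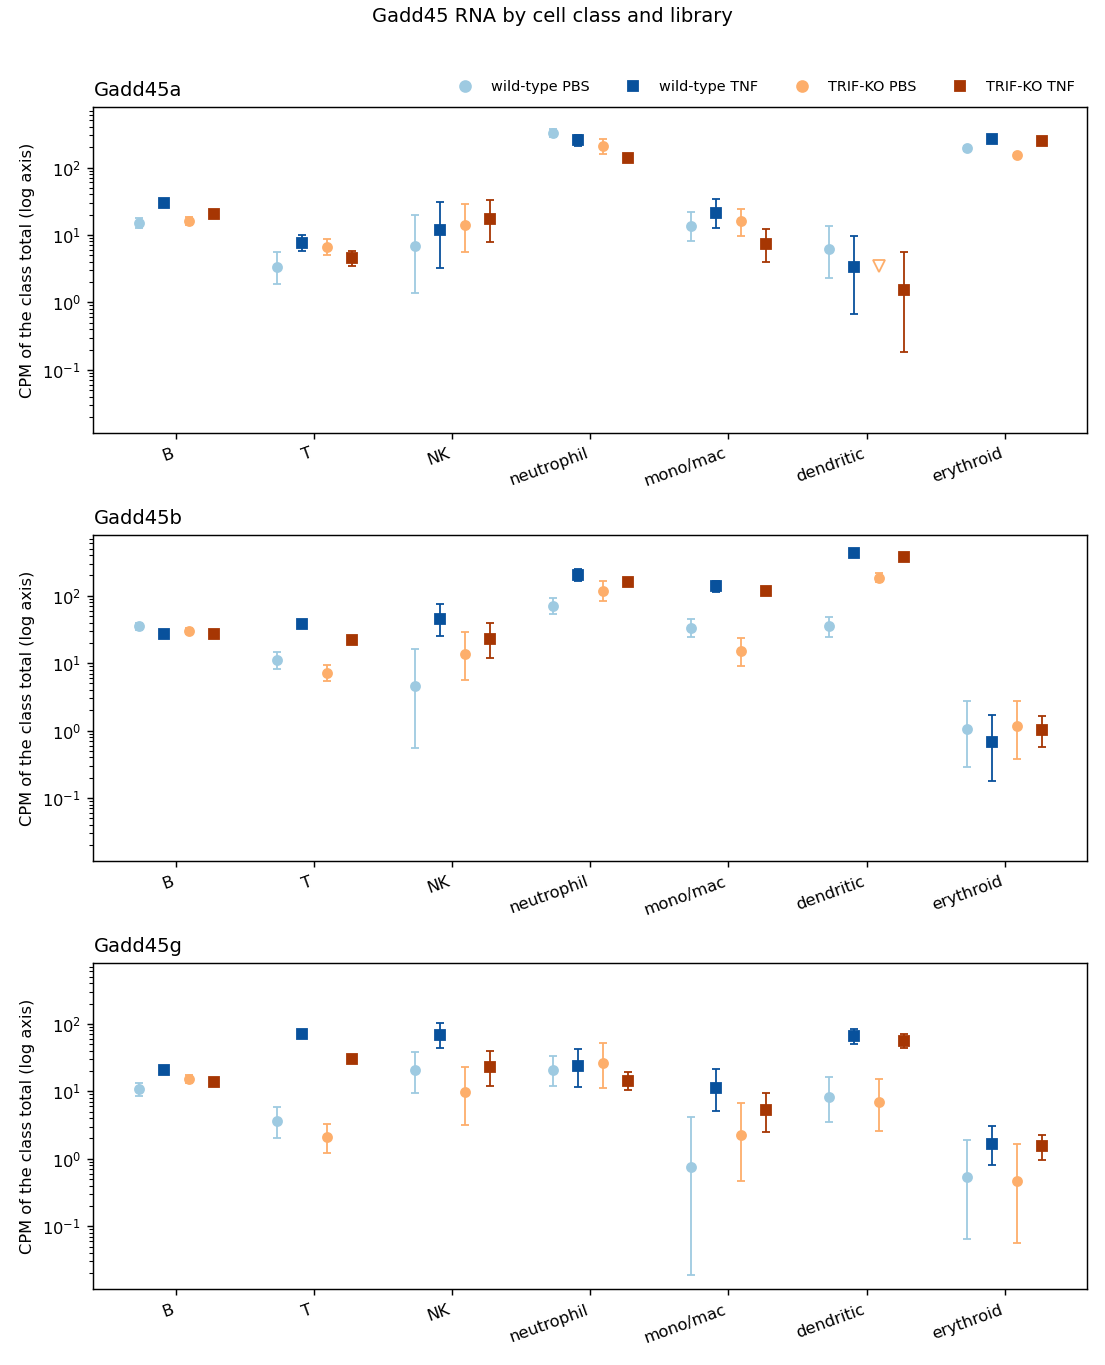
CPM of Gadd45a, Gadd45b and Gadd45g (1 panel each, log axis) in the 7 compared classes, 1 point per library with its exact 95% Poisson interval; circles are PBS, squares TNF, blue wild-type and orange TRIF-KO. The open triangle marks 0 UMIs of Gadd45a in dendritic-like cells of the TRIF-KO PBS library and stands at the floor of 3 counts. Gadd45b in dendritic-like cells stands at 35.1, 433, 185 and 369 CPM and Gadd45g in T-like cells at 3.58, 71.8, 2.08 and 30.2 CPM.

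Gadd45b was at least 2-fold higher with TNF in T-like, dendritic-like, monocyte/macrophage-like and neutrophil-like cells of 1 or both genotypes, Gadd45g in T-like and dendritic-like cells, and Gadd45a in wild-type T-like cells. Ratios are given where a gene reached 50 UMIs in a class, summed over the libraries, which is called measured here. Gadd45a was at least 2-fold higher in 1 of 10 measured ratios (5 classes in 2 genotypes), Gadd45b in 6 of 10 and Gadd45g in 4 of 8. Outside T-like and dendritic-like cells this held for 0 of 8 Gadd45a, 3 of 6 Gadd45b and 0 of 4 Gadd45g ratios. Of the 28 ratios 1 was at least 2-fold lower, that of Gadd45a in TRIF-KO monocyte/macrophage-like cells. Among all measured genes of the same classes, the share at least 2-fold higher with TNF was, in wild-type and then TRIF-KO, 2.62% and 2.34% in B-like, 4.18% and 2.85% in T-like, 5.06% and 4.05% in NK-like and 11.1% and 9.89% in neutrophil-like cells. It was 8.76% and 8.57% in monocyte/macrophage-like, 6.99% and 4.85% in dendritic-like and 3.48% and 4.77% in erythroid-like cells. The share at least 2-fold lower was 5.32% and 1.81% in B-like, 7.6% and 1.71% in T-like, 13.7% and 7.06% in NK-like, 24.6% and 23.4% in neutrophil-like, 22% and 12.4% in monocyte/macrophage-like, 20.7% and 9.8% in dendritic-like and 7.13% and 4.72% in erythroid-like cells. Since the rule picked the genes on the T-cell and dendritic-cell responses, nothing is read from the counts in those classes. The median log2 ratio of all measured genes lay between -0.37 and 0.05 over the 14 comparisons, so a class's ratios are relative to such a shift. Where only higher genes of a list are counted here, none of its genes was at least 2-fold lower.

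**Figure D2:**
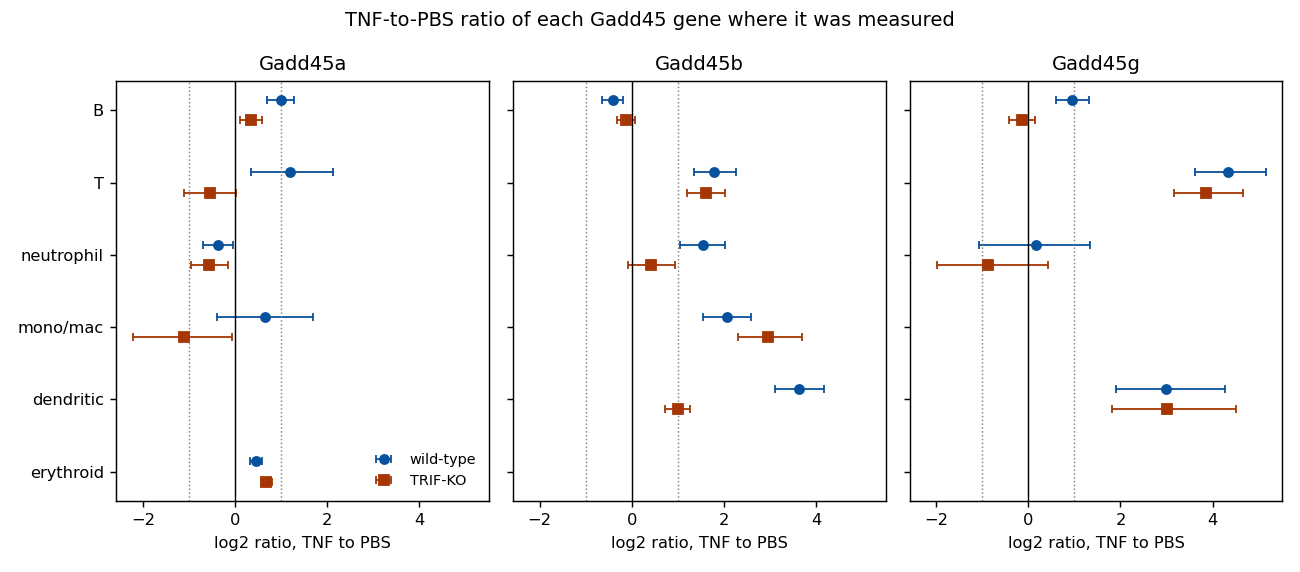
Log2 ratio of CPM with TNF to CPM with PBS for each gene (panels) and class (rows), wild-type as blue circles and TRIF-KO as orange squares, with exact conditional 95% intervals; dotted lines stand at a 2-fold difference, and only classes with at least 50 UMIs of the gene are shown. The Gadd45b point of dendritic-like cells is at 3.63 in wild-type and 0.99 in TRIF-KO, whereas the Gadd45g points of that class are at 2.98 and 3.01.

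Gadd45g in T-like cells was the response that chose the gene. It had 16, 524, 17 and 386 UMIs in 456, 1077, 1302 and 1365 cells, or 3.58, 71.8, 2.08 and 30.2 CPM. Both TNF libraries were high and both PBS libraries low, and the intervals of the TNF libraries (65.8 to 78.3 and 27.3 to 33.4 CPM) did not overlap. The log2 ratio of TNF to PBS was 4.33 (3.62 to 5.15) in wild-type, the fourth highest of 10481 measured genes (rank 4), and 3.86 (3.16 to 4.65) in TRIF-KO (rank 9). After TNF, Gadd45g was lower in the TRIF-KO library than in wild-type (log2 -1.25, -1.44 to -1.06), while with PBS the 2 genotypes differed by log2 -0.78 (-1.85 to 0.30). The 2 responses differed by log2 -0.47 (-1.45 to 0.52), an interval that includes 0.

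The higher Gadd45g level came with more positive cells and not from a few cells. A Gadd45g UMI was found in 13, 307, 12 and 241 T-like cells, or 2.85%, 28.5%, 0.922% and 17.7% of them. Positive cells held 1.23, 1.71, 1.42 and 1.60 UMIs each, and the highest cell held 2, 13, 4 and 10. Thinned to 1000 UMIs per cell, which makes depths equal, the shares were 0.219%, 6.15%, 0.154% and 2.49%. Erythroid-like cells, read as the level that free RNA in droplets could give, had a Gadd45g UMI in 0.787%, 1.70%, 0.522% and 1.42% of cells at median depths of 15805.5, 12359, 11396 and 13990 UMIs, against 9399, 6378, 5995 and 8842 in T-like cells. With PBS in the TRIF-KO library the T-like share is therefore close to that background.

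Every T-like subset with enough cells had more Gadd45g RNA with TNF. CD4 T-like cells had no Gadd45g UMI in the wild-type PBS library (0 of 154 cells, which allows a share of cells with a UMI of up to 1.95% and does not limit the share of cells that express the gene) and stood at 0, 65.3, 0.568 and 22.4 CPM. Against the floor of 3 counts in that library, 2.29 CPM, the wild-type TNF library was at least 28.5-fold higher. CD8 T-like cells were read at 4.15, 84.1, 2.21 and 43.4 CPM, with log2 ratios of 4.34 (3.34 to 5.57) in wild-type and 4.30 (3.23 to 5.63) in TRIF-KO. Regulatory T-like cells, a cluster led by Tnfrsf4 with Foxp3 among its leading genes, stood at 4.69, 87.5, 5.88 and 30.2 CPM. Memory-like T cells, marked by Ccl5 and Il2rb, had the smallest ratios, at 7.42, 39.0, 5.04 and 18.8 CPM with log2 ratios of 2.39 (1.14 to 3.93) and 1.90 (0.41 to 3.85). In all 4 subsets the TRIF-KO TNF library was below the wild-type TNF library.

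**Figure D3:**
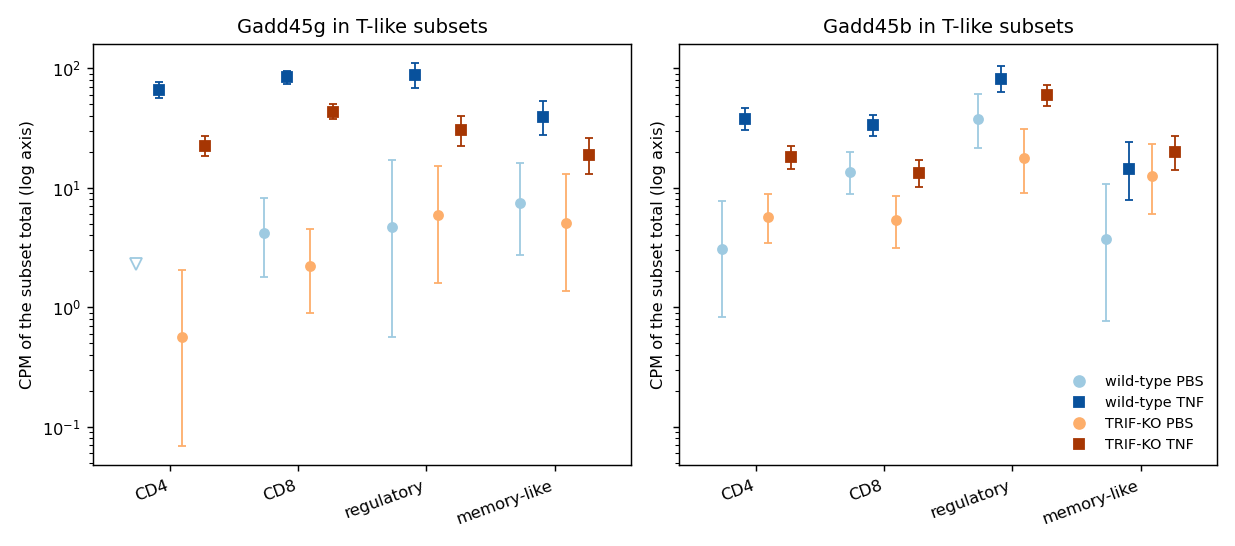
CPM (log axis) of Gadd45g (left) and Gadd45b (right) in 4 T-like subsets, 1 point per library with its exact 95% Poisson interval; circles are PBS, squares TNF, blue wild-type and orange TRIF-KO, and the open triangle stands at the floor of 3 counts for 0 UMIs. Gadd45g with TNF lies between 18.8 and 87.5 CPM in all subsets, and Gadd45b is highest in regulatory T-like cells, at 37.5, 81.4, 17.6 and 59.1 CPM.

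Gadd45b was also higher with TNF in T-like cells of both genotypes, at 49, 275, 59 and 280 UMIs or 10.9, 37.7, 7.23 and 21.9 CPM. Its log2 ratios were 1.78 (1.34 to 2.25) and 1.60 (1.19 to 2.03), and the responses differed by log2 -0.18 (-0.77 to 0.41). As with Gadd45g, the level after TNF was lower in the TRIF-KO library (log2 -0.78, -1.03 to -0.54). Regulatory T-like cells had the highest Gadd45b of the 4 subsets in every library. CD4 T-like cells stood at 3.05, 37.7, 5.68 and 18.04 CPM, CD8 T-like cells at 13.5, 33.2, 5.36 and 13.2 CPM and memory-like T cells at 3.71, 14.4, 12.6 and 19.8 CPM. In CD8 T-like cells the TRIF-KO TNF library was no higher than the wild-type PBS library.

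Detection of Gadd45b and Gadd45g in the same T-like cell was compared after TNF. Of 165 wild-type cells with a Gadd45b UMI, 49 also had Gadd45g, or 29.7% (22.8 to 37.3), against 28.3% (25.4 to 31.3) of the 912 cells without Gadd45b. In TRIF-KO these were 37 of 157 cells, 23.6% (17.2 to 31.0), against 16.9% (14.8 to 19.1) of 1208. Gadd45g was thus found about as often with as without Gadd45b in wild-type, and more often with it in TRIF-KO. The TRIF-KO intervals overlapped, which does not show that the shares are equal. As these shares also depend on depth, neither a link nor its absence is read from them. Thinned to 1000 UMIs, 1 of 41 and 0 of 28 cells with Gadd45b had Gadd45g, too few to compare.

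Gadd45a stayed low in T-like cells, at 15, 56, 54 and 58 UMIs or 3.35, 7.68, 6.62 and 4.54 CPM. The wild-type ratio was log2 1.20 (0.35 to 2.12), the sole Gadd45a ratio at least 2-fold higher, and the TRIF-KO ratio was log2 -0.54 (-1.10 to 0.02). The responses differed by log2 -1.70 (-2.67 to -0.73), with the wild-type PBS library lowest. A Gadd45a UMI was found in 3.07%, 4.46%, 3.53% and 3.52% of T-like cells, against 2.99%, 1.61%, 0% and 1.01% of dendritic-like cells, the class with least Gadd45a, whose median depths were 12828, 2835.5, 2740 and 3159 UMIs.

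RNA of other cells was read at low levels in T-like cells, and most of it was haemoglobin RNA, with the 8 erythroid markers at a sum of 1439, 1435, 828 and 1523 CPM. The summed level of 8 neutrophil markers was 37.1, 59.2, 11.6 and 158 CPM, with 6, 6, 7 and 8 of 8 detected and Ly6g at 0 in all but the TRIF-KO TNF library. The 10 macrophage markers summed to 2.90, 5.48, 13.4 and 16.1 CPM (5, 7, 9 and 10 detected, with Cd5l and Mertk at 0 in both wild-type libraries). The 9 markers of conventional dendritic 2 cells summed to 6.48, 8.64, 6.49 and 5.64 CPM (5, 6, 7 and 6 detected, with Flt3 at 0 in all but the TRIF-KO TNF library), and the 9 NK markers to 175, 103, 88.7 and 128 CPM. The part of these cells in the T-like values was not tested.

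The other genes of the pathway differed unevenly between TNF and PBS in T-like cells. Of the 12 measured MAP kinase partners of GADD45, none was at least 2-fold higher with TNF and 1 was at least 2-fold lower in both genotypes, where 7.6% and 1.71% of all measured genes were (median log2 ratio -0.14 in wild-type and 0.08 in TRIF-KO, against -0.18 and 0.05 for all 10481 measured genes). That gene was Map2k6, a kinase that activates p38, at 8.49, 2.06, 6.25 and 2.90 CPM. NF-kB targets and feedback genes were at least 2-fold higher for 9 and 6 of 21 (median 0.69 and 0.68), led by the NF-kB co-factor Bcl3 at 19.7, 122, 12.3 and 69.1 CPM. The ubiquitin ligase Birc3 stood at 27.9, 122, 27.3 and 70.8 CPM, and the NF-kB subunits Nfkb2 and Relb had log2 ratios of 1.95 and 1.85 in wild-type and 1.68 and 1.28 in TRIF-KO.

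The list of interleukin 12 and 18 pathway genes and effectors had 6 and 4 of 12 at least 2-fold higher (median 0.51 and 0.38). On this list 1 gene was at least 2-fold lower in TRIF-KO, Ifng, which encodes interferon-gamma (29 UMIs with PBS and 10 with TNF). The genes of the list named here are effectors and feedback inhibitors, and none is a receptor of the pathway. Granzyme B (Gzmb), a cytotoxic protease, stood at 6.93, 77.2, 3.19 and 53.04 CPM. The cytokine feedback inhibitors Socs3 and Socs1 stood at 63.2, 426, 41.3 and 229 CPM and at 49.2, 237, 50.8 and 105 CPM. The p53 targets, the class of genes that Gadd45a belongs to, showed 1 of 17 at least 2-fold higher in each genotype (median -0.45 and 0.01). In wild-type this was the death receptor Fas, at 27.3, 63.6, 25.2 and 35.8 CPM, and in TRIF-KO the pro-apoptotic Bbc3 (log2 1.11).

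Activation markers of T cells were at least 2-fold higher for 5 and 4 of 14 (median -0.14 and 0.35) and at least 2-fold lower for 2 and 0. Higher were among others the receptors Tnfrsf4 (log2 2.97 and 2.40) and Tnfrsf9 (log2 2.61 and 1.97). Lower in wild-type were the transcription factor Egr3 (log2 -1.96) and the adhesion receptor Cd44 (log2 -1.15), with -0.42 and -0.14 in TRIF-KO. Integrated stress response genes were at least 2-fold higher for 3 and 3 of 9 (median 0.37 and 0.61), including the transcription factor Cebpb at 17.9, 61.1, 16.9 and 35.8 CPM. Of 11 measured genes of DNA repair and demethylation, none was past 2-fold in either direction or genotype (median -0.02 and 0.23). For 9 cell cycle partners and proliferation genes the medians were -0.22 and 0.05, with Birc5 at least 2-fold higher and Tyms lower in wild-type and none past 2-fold in TRIF-KO. Glucocorticoid-responsive genes were at least 2-fold higher for 4 and 5 of 9 (median 0.49 and 1.49). Immediate-early and dissociation genes were higher for 4 and 2 of 14 and lower for 1 and 0 (median 0.21 and 0.20). TGF-beta targets were higher for 1 and 0 of 8 and lower for 1 and 0 (median -0.38 and -0.27).

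Gadd45b in dendritic-like cells was the response that chose that gene. It had 34, 392, 159 and 478 UMIs in 67, 186, 174 and 199 cells, or 35.1, 433, 185 and 369 CPM. Both TNF libraries were high, the wild-type PBS library was low and the TRIF-KO PBS library lay between them. The log2 ratio of TNF to PBS was 3.63 (3.12 to 4.18) in wild-type and 0.99 (0.73 to 1.26) in TRIF-KO, just under 2-fold, and the responses differed by log2 -2.62 (-3.18 to -2.05). This difference came from the PBS libraries, where TRIF-KO stood above wild-type (log2 2.40, 1.86 to 2.98). After TNF the genotypes differed by log2 -0.23 (-0.43 to -0.04).

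The Gadd45b UMIs that dendritic-like cells had in the PBS libraries sat in few of these cells. A UMI was found in 7, 93, 31 and 104 dendritic-like cells, or 10.4%, 50%, 17.8% and 52.3%, and in 4.69%, 30.8%, 12.2% and 29.0% of cells thinned to 1000 UMIs. Positive cells held 4.86, 4.22, 5.13 and 4.60 UMIs each, values that are not set against each other because median depths were 12828, 2835.5, 2740 and 3159 UMIs. The highest cell held 17 of the 34 UMIs in wild-type PBS and 35 of the 159 in TRIF-KO PBS. Without the highest cell of each library the log2 ratios were 4.55 in wild-type and 1.27 in TRIF-KO, and with a gate on marker genes in place of clusters, which kept 41, 47, 53 and 51 cells, they were 5.61 (3 and 104 UMIs) and 1.55. Erythroid-like cells had a Gadd45b UMI in 1.57%, 0.566%, 0.783% and 1.24% of cells.

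Within the dendritic-like class, nearly all Gadd45b UMIs of the PBS libraries lay in cells with RNA of Ccr7 or Fscn1. Ccr7, a homing receptor, and Fscn1, an actin bundler, mark matured, migrating dendritic cells. Such cells were 9 of 67, 131 of 186, 42 of 174 and 121 of 199 (13.4%, 70.4%, 24.1% and 60.8%). They held 32 of 34, 354 of 392, 155 of 159 and 425 of 478 Gadd45b UMIs, and their level was 291, 472, 693 and 480.0 CPM. Among these cells wild-type TNF (424 to 524 CPM) was above wild-type PBS (199 to 411 CPM). That PBS value rests on 5 positive cells, 1 of which held 17 of the 32 UMIs. Neither TNF library was above the TRIF-KO PBS library (588 to 811 CPM). In the cells without either UMI, Gadd45b stood at 2.33 (0.282 to 8.40), 245 (173 to 336), 6.30 (1.72 to 16.1) and 129 (96.6 to 169) CPM, with 2, 38, 4 and 53 UMIs, so here the TNF libraries were higher in both genotypes. The split was chosen after values were seen, and depth touches it, as cells with Ccr7 or Fscn1 had median depths of 13330, 4400, 4299 and 5180 UMIs and the others 11944, 1611, 2472.5 and 1786.5.

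**Figure D4:**
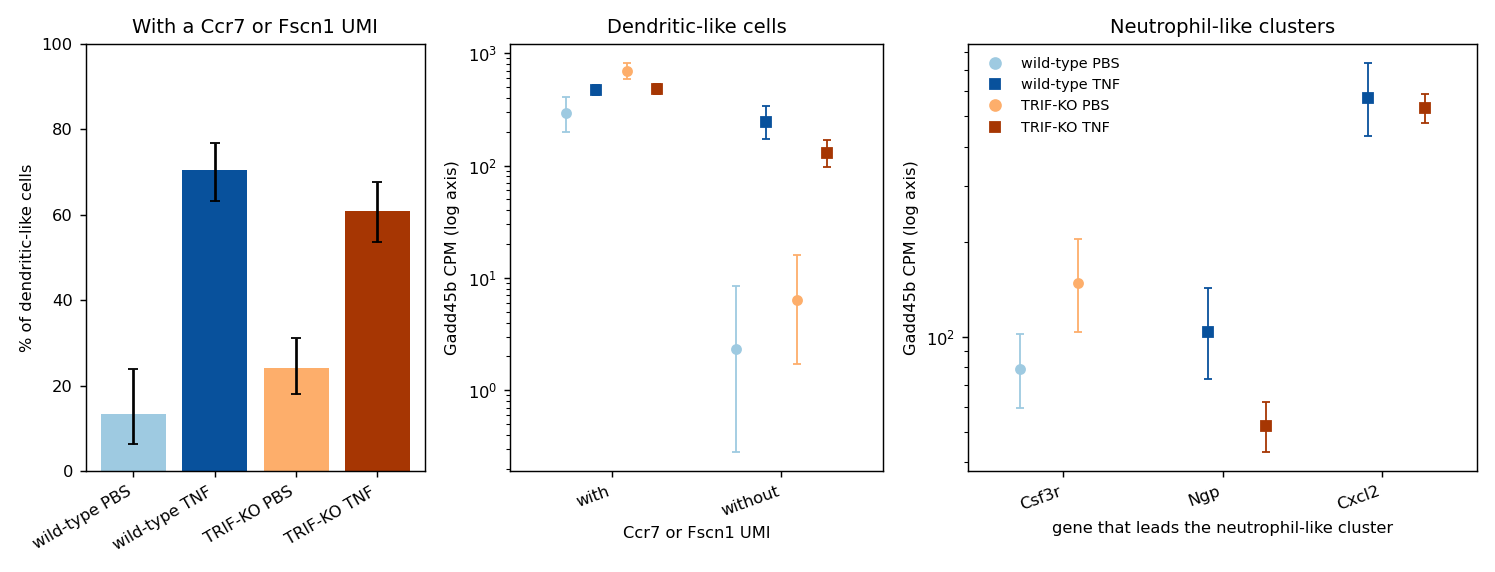
Left, percent of dendritic-like cells with a Ccr7 or Fscn1 UMI in each library (bars with exact 95% binomial intervals). Middle, Gadd45b CPM (log axis, exact Poisson intervals) in dendritic-like cells with and without such a UMI, where the cells without one stand at 2.33, 245, 6.30 and 129 CPM. Right, Gadd45b CPM in the 3 neutrophil-like clusters, shown for libraries with at least 20 cells, where the cluster led by Cxcl2 stands at 569 and 529 CPM in the TNF libraries.

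Both clusters of conventional dendritic-like cells had more Gadd45b with TNF. The conventional dendritic 1-like cells (26, 97, 63 and 110 cells) stood at 2.08, 524, 92.7 and 316 CPM, the first from 1 UMI, with a TRIF-KO log2 ratio of 1.77 (1.19 to 2.40). The conventional dendritic 2-like cells (41, 89, 111 and 89 cells), a cluster whose leading genes were Fabp5 and Tbc1d4, stood at 67.5, 385, 235 and 403 CPM, with log2 ratios of 2.51 (1.98 to 3.08) and 0.78 (0.48 to 1.08). Of the 9 markers behind this name, 9, 9, 9 and 8 were higher there than in the remaining cells. However, none of its 10 leading genes was a dendritic marker, and Fscn1 was among them. Whether the cluster is a subset or a matured state was not tested. TRIF-KO PBS was above wild-type PBS in both clusters. Plasmacytoid dendritic-like cells, with 7 to 22 cells per library, were read at 55.5, 53.01, 82.1 and 171 CPM from 5, 5, 18 and 38 UMIs.

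Gadd45g was likewise higher in dendritic-like cells with TNF, at 8, 59, 6 and 73 UMIs or 8.25, 65.2, 6.99 and 56.3 CPM. The log2 ratios were 2.98 (1.91 to 4.26) and 3.01 (1.82 to 4.50), and the responses differed by log2 -0.00135 (-1.56 to 1.55). Unlike Gadd45b, it was low in both PBS libraries, also among cells with Ccr7 or Fscn1, which stood at 9.09, 73.4, 4.47 and 58.7 CPM. The UMIs came mostly from the cluster named conventional dendritic 2-like, where the log2 ratios were 3.95 (2.33 to 6.27) and 2.83 (1.63 to 4.34). Conventional dendritic 1-like cells had 5, 3, 0 and 13 Gadd45g UMIs. A Gadd45g UMI was found in 17.2% (10.2 to 26.4) of 93 wild-type TNF cells with Gadd45b and in 16.1% (9.32 to 25.2) of the 93 without.

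Gadd45a was at the limit of detection in dendritic-like cells, with 6, 3, 0 and 2 UMIs. In the TRIF-KO PBS library it was found in 0 of 174 cells, which allows a share of cells with a UMI of up to 1.72% and does not limit the share of cells that express the gene. The gene was thus not detectable there at this depth, and no ratio is given.

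RNA of other classes was present in the dendritic-like cells, unequally between libraries. The 8 erythroid markers, led by Hbb-bs, had the highest sum of those given here, at 8489, 11670 and 8143 CPM in the first 3 libraries and 8346 CPM in TRIF-KO TNF (8, 6, 6 and 7 detected, with Klf1 at 0 in all but wild-type PBS). The 8 neutrophil markers summed to 5253, 1002, 23.3 and 188 CPM, with 8, 7, 5 and 6 detected and Ly6g at 0 in all but wild-type PBS. The 8 follicular B markers, all detected, summed to 384, 139, 265 and 393 CPM, and the 10 macrophage markers to 18.6, 129, 416 and 136 CPM (7, 8, 10 and 9 detected, with Mertk at 0 in all but TRIF-KO PBS). The 9 memory-like T markers, mostly Ccl5, summed to 313, 1500.4, 1517 and 758 CPM (9, 5, 8 and 8 detected). The median depth of the wild-type PBS cells, 12828 UMIs, was also above that of the other libraries. Leaving out the cells outside the neutrophil-like class with 3 or more of the granule genes Ngp, Camp, Ltf and Lcn2 took 1, 1, 0 and 1 dendritic-like cells and gave Gadd45b log2 ratios of 3.57 in wild-type and 1.001, just past 2-fold, in TRIF-KO. The part of such RNA in the Gadd45b values was not tested.

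Around Gadd45b, the 14 dendritic maturation genes were at least 2-fold higher for 14 and 10 of 14 (median log2 ratio 3.92 in wild-type and 1.16 in TRIF-KO, against -0.29 and -0.08 for all 6685 measured genes). Fscn1 stood at 10.3, 628, 232 and 539 CPM, the same order of libraries as Gadd45b. The fatty-acid-binding protein Fabp5 stood at 71.2, 5571, 193 and 4598 CPM, the chemokine Ccl22 at 3.09, 238, 11.6 and 106 CPM and the feedback inhibitor Socs2 at 1.03, 136, 79.2 and 166 CPM. Of the 22 NF-kB genes, 15 and 5 were at least 2-fold higher (median 1.43 and 0.59) and 1, the subunit gene Nfkb1, was at least 2-fold lower in TRIF-KO. The anti-apoptotic Bcl2a1b stood at 350, 1867, 537 and 1281 CPM and the inhibitor Nfkbia at 357, 1221, 456 and 716 CPM.

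Of 10 measured MAP kinase partners, the kinases that GADD45 proteins bind or feed, none was at least 2-fold higher in dendritic-like cells. In wild-type 6 and in TRIF-KO 3 were at least 2-fold lower (median -1.03 and -0.57), where 20.7% and 9.8% of all measured genes were. Map3k4, the GADD45-binding kinase MTK1, stood at 40.2, 2.21, 18.6 and 5.40 CPM, and Mapk14, which encodes p38 alpha, at 127, 29.8, 86.2 and 41.7 CPM. Of 14 p53 targets, 4 and 2 were at least 2-fold higher and 2 and 1 lower (median 0.04 and 0.44), with the death receptor Fas at 4.13, 53.03, 16.3 and 44.0 CPM and p21 (Cdkn1a) at 18.6, 71.8, 23.3 and 67.1 CPM. Integrated stress response genes were higher for 4 and 3 of 8 (median 0.78 and 0.70), and DNA repair and demethylation genes for 1 and 1 of 7 with 2 and 1 lower (median -0.24 and 0.01). Higher were the demethylase Tet2 in wild-type, at 105, 259.6, 87.3 and 155 CPM, and the glycosylase Tdg in TRIF-KO (log2 1.19). Lower were Tet3, a relative of Tet2, in both genotypes, at 84.6, 9.94, 65.2 and 23.9 CPM, and the repair nuclease Ercc5 in wild-type (log2 -1.39).

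In monocyte/macrophage-like cells Gadd45b was at least 2-fold higher with TNF in both genotypes. It had 44, 110, 20 and 226 UMIs, or 33.3, 139, 15.1 and 118 CPM, with log2 ratios of 2.06 (1.54 to 2.60) and 2.97 (2.30 to 3.70) and a difference between responses of log2 0.89 (0.06 to 1.71). Both TNF libraries were high and both PBS libraries low. Monocyte-like cells stood at 34.8, 134, 17.0 and 131 CPM and macrophage-like cells at 21.3, 153, 7.46 and 83.0 CPM. The PBS and TNF cells lay in different clusters, with monocyte-like cells led by Lyz2 with PBS and by Saa3 with TNF, and macrophage-like cells mostly led by Vcam1 with PBS and by Marco with TNF. Gadd45a had 18, 17, 21 and 14 UMIs, or 13.6, 21.5, 15.8 and 7.30 CPM, with log2 ratios of 0.65 (-0.39 to 1.69) and -1.12 (-2.21 to -0.07). In the TRIF-KO PBS library 1 cell held 10 of the 21 UMIs, and with the gate on marker genes the TRIF-KO ratio was 0.63 (4 and 10 UMIs), the opposite direction. Gadd45g had 1, 9, 3 and 10 UMIs, too few to be taken as measured. NF-kB genes of this class were at least 2-fold higher for 17 and 15 of 22 (median 2.07 and 1.64, against -0.26 and -0.08 for all 7830 genes), and none of the 10 MAP kinase partners was. Of these partners 4 in wild-type (Map3k1, Map3k4, Map3k5 and Map2k7) and 1 in TRIF-KO (Mapk8) were at least 2-fold lower, where 22% and 12.4% of all measured genes were. Glucocorticoid-responsive genes were at least 2-fold higher for 5 and 5 of 11 and lower for 3 and 1 (median 0.71 and 0.76). The 8 erythroid markers, led by Hbb-bs, summed to 1751, 12913, 16525 and 11245 CPM in this class (8, 7, 8 and 8 detected), and the 8 neutrophil markers to 415, 914, 534 and 701 CPM (7 detected in each library, with Ly6g at 0 in all but wild-type PBS). Both sums were higher with TNF in wild-type. Their part in the Gadd45a and Gadd45b values was not tested.

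Neutrophil-like cells had both Gadd45a and Gadd45b. Gadd45b had 58, 97, 36 and 470 UMIs, or 71.1, 206, 118 and 157 CPM, with a log2 ratio of 1.54 (1.05 to 2.03) in wild-type and 0.41 (-0.08 to 0.95) in TRIF-KO. The responses differed by log2 -1.14 (-1.81 to -0.46). PBS cells lay in a cluster led by Csf3r, a growth factor receptor of mature neutrophils, and TNF cells in one led by the granule gene Ngp. At a finer resolution the TNF cells split in 2, and Gadd45b differed between the parts more than between the genotypes. The Cxcl2-led cells (28 and 132 cells) stood at 569 (433 to 733) and 529 (475 to 588) CPM, and the Ngp-led cells (55 and 220 cells) at 104 (73.3 to 142) and 51.9 (43.1 to 62.1) CPM. The Csf3r-led PBS cells (161 and 96 cells) stood at 78.7 and 147 CPM. In the TRIF-KO TNF library 1 cell held 51 of the 470 UMIs.

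Gadd45a in neutrophil-like cells had a lower CPM with TNF, at 266, 119, 63 and 418 UMIs or 326, 253, 207 and 139.9 CPM. The log2 ratios were -0.37 (-0.69 to -0.05) and -0.56 (-0.95 to -0.16), less than 2-fold and near the medians of all measured genes, -0.29 and -0.37. They ranked 2757 and 3051 from the top of 5188 genes, so a change beyond the shift of the class is not read from them. With median-of-ratios scaling the TRIF-KO ratio was log2 -0.19. Without doublet removal the wild-type ratio was log2 0.21, the opposite direction. The level was lower in TRIF-KO than in wild-type with PBS (log2 -0.66) and with TNF (log2 -0.85). By cluster it stood at 360.1 and 249.9 CPM in Csf3r-led cells, 239.9 and 138 CPM in Ngp-led cells and 299 and 146 CPM in Cxcl2-led cells, wild-type before TRIF-KO. A Gadd45a UMI was found in 72.9%, 63.9%, 38.0% and 58.0% of the cells and, thinned to 1000 UMIs, in 29.5%, 14.8%, 16.2% and 12.1%. Gadd45g had 17, 11, 8 and 43 UMIs (20.8, 23.4, 26.2 and 14.4 CPM), and both ratio intervals included 0. NF-kB genes were at least 2-fold higher for 16 and 17 of 22 in this class (median 2.22 and 1.88, against -0.29 and -0.37 for all 5188 genes). Glucocorticoid-responsive genes were at least 2-fold higher for 5 and 5 of 10 and lower for 3 and 3 (median 0.96 and 0.90). The 8 erythroid markers summed to 2951, 2057, 1233 and 8017 CPM in neutrophil-like cells (7, 6, 6 and 6 detected, with Epor at 0 in all 4), and the 10 macrophage markers to 586, 338, 609.8 and 296 CPM (4, 8, 5 and 9 detected). The erythroid sum was lower with TNF in wild-type and higher with TNF in TRIF-KO. The part of such RNA in these values was not tested.

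Erythroid-like cells, the nucleated red cell precursors left after lysis, carried most Gadd45a. It had 723, 1582, 663 and 3889 UMIs in 254, 530, 383 and 1127 cells, or 192, 264, 154 and 247 CPM, and a UMI in 72.4%, 73.6%, 60.3% and 77.7% of cells. Both TNF libraries were above both PBS libraries, with log2 ratios of 0.45 (0.33 to 0.58) and 0.68 (0.56 to 0.80), under 2-fold. Gadd45b (4, 4, 5 and 16 UMIs) and Gadd45g (2, 10, 2 and 24 UMIs) were nearly missing from these cells. The 8 neutrophil markers summed to 34.9, 38.7, 6.74 and 253 CPM in erythroid-like cells (6, 5, 5 and 8 detected).

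Gadd45a differed between erythroid-like clusters more than between treatments. The cluster led by Tmcc2 and Xpo7 stood at 397, 592, 435 and 547 CPM, and that led by Isg15 and Trim10 at 302, 419.9, 241 and 364 CPM. The cluster led by Hemgn and histone genes, which also held the proliferation marker Mki67 among its leading genes, stood at 90.0, 176, 92.1 and 164 CPM, and that led by Bpgm at 45.2, 134, 78.9 and 126 CPM. In each of the 4 clusters and both genotypes Gadd45a was higher with TNF, with log2 ratios from 0.33 (0.17 to 0.50) to 1.56 (1.12 to 2.04). Of 9 measured p53 targets of this class 2 were at least 2-fold higher in each genotype (median -0.15 and 0.37, against -0.09 and 0.02 for all 6035 genes), the pro-apoptotic Bbc3 (7.19, 22.5, 3.95 and 10.6 CPM) and the stress gene Sesn2 (3.99, 9.00, 1.39 and 5.45 CPM). Integrated stress response genes were higher for 3 and 4 of 9, led by asparagine synthetase Asns at 19.2, 62.8, 10.0 and 66.2 CPM. Glucocorticoid-responsive genes were higher for 3 and 6 of 7 (median 0.44 and 1.63).

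**Figure D5:**
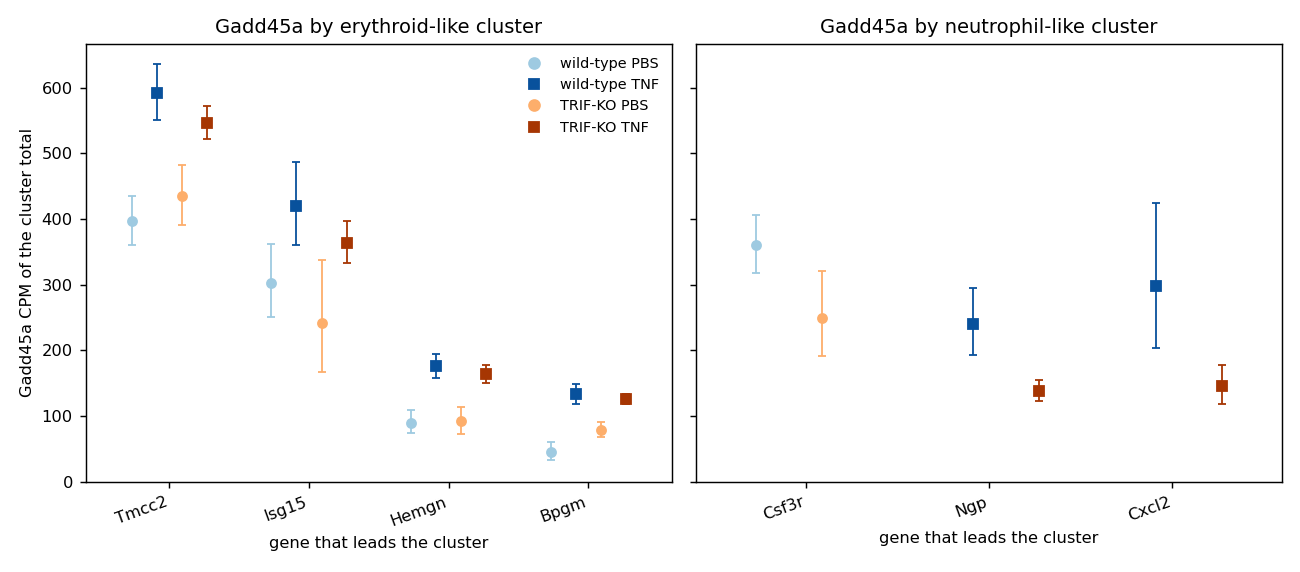
Gadd45a CPM (linear axis, exact 95% Poisson intervals) in the 4 erythroid-like clusters (left) and the 3 neutrophil-like clusters (right, libraries with at least 20 cells), 1 point per library; circles are PBS, squares TNF, blue wild-type and orange TRIF-KO. In each erythroid-like cluster the TNF point lies above the PBS point of its genotype, for example 592 against 397 CPM in wild-type cells led by Tmcc2 and Xpo7.

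B-like cells had all 3 genes at low levels. Gadd45a stood at 15.1, 30.1, 16.4 and 20.8 CPM, with log2 ratios of 0.99 (0.70 to 1.29), just under 2-fold, and 0.34 (0.10 to 0.59), and a difference between responses of log2 -0.64 (-1.02 to -0.27). Gadd45g stood at 10.8, 20.8, 15.3 and 13.9 CPM, higher with TNF in wild-type (log2 0.95, 0.60 to 1.31) and with an interval that includes 0 in TRIF-KO (log2 -0.14, -0.41 to 0.13). Those responses differed by log2 -1.08 (-1.51 to -0.65). Gadd45b was at 35.4, 26.7, 29.7 and 27.1 CPM, with log2 ratios of -0.41 (-0.63 to -0.18) and -0.13 (-0.33 to 0.06).

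Marginal zone and follicular B-like cells differed in these genes. Gadd45b stood at 58.4, 27.8, 40.6 and 23.9 CPM in marginal zone B-like cells, lower with TNF in both genotypes (log2 -1.07, -1.53 to -0.62, and log2 -0.76, -1.22 to -0.30). In follicular B-like cells it stood at 28.4, 26.4, 27.8 and 27.8 CPM, with both ratio intervals including 0. Gadd45g showed the reverse pattern of subsets, with 2.54, 5.81, 1.04 and 4.08 CPM in marginal zone and 13.3, 24.2, 17.9 and 16.2 CPM in follicular B-like cells. Gadd45a stood at 15.2, 39.0, 16.7 and 28.3 CPM in marginal zone and 15.1, 28.0, 16.3 and 19.1 CPM in follicular B-like cells. In B-like cells none of the 12 MAP kinase partners was past 2-fold in either genotype (median -0.30 and -0.01, against -0.18 and -0.02 for all 11217 genes), and of 20 NF-kB genes 1 and 0 were higher, Bcl3 in wild-type at 31.5, 85.9, 29.2 and 53.9 CPM.

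NK-like cells (69, 71, 135 and 73 cells) gave too few UMIs for any of the genes to be taken as measured. Gadd45g had 9, 23, 5 and 12 UMIs, or 20.4, 68.9, 9.92 and 22.8 CPM, with a wild-type log2 ratio of 1.76 (0.59 to 3.05). Gadd45b had 2, 15, 7 and 12 UMIs, or 4.53, 44.9, 13.9 and 22.8 CPM. Both were highest in the wild-type TNF library, and the TRIF-KO intervals included no difference.

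Classes are ordered here by mean level, and a range runs from the lowest to the highest interval bound over both genotypes. An overlap of ranges can set a wild-type value against a TRIF-KO value and does not mean overlap within a library. With PBS, Gadd45a ran from neutrophil-like and erythroid-like cells, whose ranges overlapped, through B-like, monocyte/macrophage-like, NK-like and T-like to dendritic-like cells, where each neighbour overlapped the next. With TNF, erythroid-like cells came first and overlapped neutrophil-like cells. Gadd45b with TNF ran from dendritic-like cells through neutrophil-like and monocyte/macrophage-like cells, which overlapped, to NK-like, T-like and B-like cells, which overlapped, and last to erythroid-like cells. With PBS it ran from dendritic-like and neutrophil-like cells through B-like, monocyte/macrophage-like, NK-like and T-like cells to erythroid-like cells. Gadd45g with TNF was highest in dendritic-like, T-like and NK-like cells, whose ranges overlapped, and lowest in erythroid-like cells. In the TRIF-KO TNF library it stood at 56.3 CPM in dendritic-like and 30.2 CPM in T-like cells. For Gadd45b with TNF, T-like cells stood above B-like cells in wild-type (37.7 against 26.7 CPM) and below them in TRIF-KO (21.9 against 27.1 CPM).

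Over 56 sums of UMIs, 1 per library and class with at least 50 cells (15 classes), Gadd45a and Gadd45b had a Pearson r of -0.17, Gadd45a and Gadd45g of -0.14 and Gadd45b and Gadd45g of 0.41. These points share libraries and depth, and r is a description. Among 9253 genes, the most like Gadd45a were Nfe2 (0.83), Grina (0.83), Gpcpd1 (0.82), Optn (0.82) and Carhsp1 (0.81). The most like Gadd45b were Pfkfb3 (0.87), Samsn1 (0.83), Marcksl1 (0.82), Pmaip1 (0.82) and Jak2 (0.82). Those of Gadd45g were Coq10b (0.74), Bcl3 (0.71), Arid5a (0.70), Cirbp (0.68) and Socs1 (0.65).

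On the strand opposite to Gadd45a the annotation has E230016M11Rik, which overlaps it and had 22, 53, 40 and 107 UMIs against 1217, 2195, 1040 and 4857 of Gadd45a. In B-like cells these were 12, 35, 19 and 58 against 128, 391, 207 and 410 UMIs. T-like cells had 3, 10, 7 and 9 against 15, 56, 54 and 58 UMIs, so the library totals understate its part in these classes. The sources used here do not say whether counting used the strand. Gadd45b and Gadd45g overlap no other annotated gene.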

How the data were processed

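Single-cell RNA was counted in 4 mouse spleen libraries, 1 per genotype and treatment. The deposited matrices hold raw UMI counts per gene and barcode, written by Cell Ranger 6.0.1 per the file headers. The submitters' processing notes name Cell Ranger 3.0, Seurat 4.1.1 and mm10. The sources used here give no annotation release. The libraries held 23614028, 34774147, 33771809 and 67276803 UMIs. Groups were taken from the labels.

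Barcodes with under 200 genes or over 10% mitochondrial UMIs were left out, and the highest Scrublet scores were removed at 0.8% per 1000 barcodes (50, 221, 256 and 399 cells). Counts were clustered with scanpy 1.11.5 (2000 variable genes, 30 components, 15 neighbours, Leiden resolution 1) in Python 3.11.15. The 26 clusters were named from 21 marker lists, and these rebuilt names may differ from the study's. For each library, the UMIs of a class were added up and divided by the class total (CPM). Exact Poisson, conditional and binomial 95% intervals came from scipy 1.17.1, and PCR and sampling between mice are not covered by them. The difference of responses used counts with 0.5 added and a normal approximation. The interval script was tested on simulated counts. Shares were also computed after thinning each cell to 1000 UMIs, and floors for 0 UMIs are 3 counts per library.

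The members and the 12 gene lists were chosen with earlier results of these data known. Not every list is given for every class. Named beside the members are, per list and class, up to 4 measured genes (at least 50 UMIs) at least 2-fold different with the interval bound farthest from 1, otherwise the 2 with most UMIs. The 5 genes most like each member had the highest Pearson r of log2(CPM + 10) among genes with at least 500 UMIs. Chosen after values were seen were Ifng, Bbc3 and Cd44 in T-like cells, Nfkb1 and Tdg in dendritic-like cells and Mapk8 in monocyte/macrophage-like cells. So was the split by Ccr7 or Fscn1. Alternatives were a marker gate, resolution 2, a 5% mitochondrial limit, no doublet removal, 2 other scalings, equal weight for cells and leaving out the top cell.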

Additional observations from a re-analysis of the deposited data

How the results depend on the processing

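Of 28 TNF-to-PBS ratios of measured members, 11 were at least 2-fold higher, and these 11 stayed so under each of the 9 alternatives, except that the gate gave no value for Gadd45g in TRIF-KO dendritic-like cells. 1 alternative (leaving out 13 cells outside the neutrophil-like class with granule genes) was chosen after seeing the data. 25 of 28 kept their direction. The Gadd45a count was 2 in place of 1 of 10 with at most 5% mitochondrial UMIs, with mitochondrial, ribosomal, haemoglobin and immunoglobulin genes left out of CPM, with median-of-ratios scaling and without the top cell, each time through wild-type B-like cells (0.99; 1.02 to 1.24). The Gadd45b count was 7 in place of 6 of 10 under 5 alternatives, each time through TRIF-KO dendritic-like cells. The Gadd45g ratio of wild-type B-like cells, 0.95, was past 2-fold with the gate (1.03), with those genes left out of CPM (1.05) and with median-of-ratios scaling (1.12), and the Gadd45g count was 5 in place of 4 of 8 under the last 2. In dendritic-like cells the wild-type Gadd45b log2 ratio of 3.63 was 5.61 with the marker gate, 2.90 with cells weighted equally and 4.55 without the top cell. The TRIF-KO ratio of 0.99 was 1.55, 0.64 and 1.27 in the same order, so whether it passes 2-fold depends on the setting. The Gadd45a ratio of TRIF-KO monocyte/macrophage-like cells, -1.12, reversed to 0.63 with the gate, and that of wild-type neutrophil-like cells, -0.37, was 0.21 without doublet removal. That of Gadd45g in TRIF-KO B-like cells, -0.14, was 0.12 with at most 5% mitochondrial UMIs. For these the cause was not tested. Thinning to 1000 UMIs moved 75 of 84 shares of cells beyond their intervals, so shares are not comparable across depths unless thinned. No paired analysis was possible because each group has 1 library. The spread between mice is unknown, and members with few UMIs (Gadd45a in T-like and dendritic-like cells, all 3 in NK-like cells) are limited by depth.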
